A study of Danio rerio with 12 samples.

Results

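The collagen, laminin, fibronectin and integrin genes of the zebrafish were followed here: the fibres and sheets of the extracellular matrix and the receptors by which cells hold on to them. They were the genes with 1 symbol in the platform annotation that begins as a collagen chain (col and a number), a laminin chain (lama, lamb or lamc), fn1 or an integrin subunit (itga or itgb). This gave 35 of 8793 named genes, measured by 42 of 15502 probe sets: 21 collagen, 7 laminin, 2 fibronectin and 5 integrin genes. For the 6 genes with more than 1 probe set, the one with the highest mean over all arrays was used.

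Whole embryos were profiled as pbx2-MO;pbx4-MO morphants at 18 somites, control embryos at 18 somites, morphants at 10 somites and control embryos at 10 somites, with 3 Affymetrix arrays in each of these 4 groups. All embryos were injected at the stage of 1 to 2 cells with morpholinos, antisense oligomers used to knock a gene down by keeping its transcript from being translated or spliced. The morphants received morpholinos against pbx2 and against pbx4 together, so the loss of one gene cannot be told apart from that of the other. The controls received a morpholino that the labels call a control and a pbx2 mutant, and the labels name no strain and no uninjected embryos. Pbx proteins are homeodomain transcription factors that bind DNA with Hox and other partners.

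Laminins assemble into the basement membrane, the sheet under epithelia and around notochord and muscle, while fibronectin is pulled into fibrils by cells that carry integrins. In the zebrafish embryo fibronectin gathers at somite boundaries and along the path of the heart precursors, and laminin chains are needed for the notochord. Collagens of the fibrillar kind (types I, II, V and XI) form cables, and smaller ones (types IX, XII and XIV) sit on their surface. Type II with types IX and XI builds the notochord sheath and, later, cartilage.

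Signals were deposited as log2 values per probe set, on which 1 unit is a 2-fold difference, and an effect below is the morphant mean minus the control mean. Arrays of a group correlated at 0.995 to 0.998, and the median SD of these 35 genes over the 3 arrays of a group was 0.10 to 0.12. On the array 8 control probe sets match artificial tags with no counterpart in the embryo, and they read 3.45 to 5.34 at 18 somites and 4.05 to 6.26 at 10 somites. Of the 35 genes 9 had means inside or below that range at both stages, and a change there can be hidden. Inside it were col28a1a, col10a1b, col10a1a, col6a3, lamb4 and col17a1b. Below its lower end were itga2b, itgae.2 and lamc3. The labelled material was whole embryos, and averaged over each list the epidermal, muscle, neural and notochord markers looked at lay above the tag range. Single markers did not, such as matn4 at 10 somites (4.23 in morphants and 3.98 in controls). The targeted transcripts did not check the knockdown: in morphants pbx2 signal was 1.63 ± 0.11 above control at the later stage (SE, n = 3 per group, limma adjusted p = 1.41e-06) and 1.75 ± 0.11 above it at the earlier one (adjusted p = 7.05e-07). For pbx4 these values were 0.34 ± 0.09 (adjusted p = 0.0192) and 0.45 ± 0.09 (adjusted p = 0.00606), and the first of them missed the threshold when morphant array 1 or 2 or control array 1 of 18 somites was left out (adjusted p of 0.073 to 0.0757).

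At 18 somites 5 of the 35 genes differed between morphants and controls by the test. The fibronectin gene fn1a, the laminin chain lamb1a, the integrin subunit itga6b and the collagen chain col12a1b were higher in morphants, and the collagen chain col1a2 was lower. A gene was called changed at a Benjamini-Hochberg adjusted p under 0.05 over all probe sets, from a limma fit to all 12 arrays. The 5 calls are 14.3% of the genes, and 12.5% of all probe sets were called at this stage. Of the named genes 8.28% were called higher and 6.48% lower, beside 11.4% (4 genes) and 2.86% (1 gene) here. The median effect over the 35 genes was 0.02, and over all probe sets it was 0.001. At 10 somites itga6b was again higher and col1a2 again lower, 2 of 35 genes or 5.71%, against 8.17% of all probe sets. Of the named genes 4.98% were called higher and 4.53% lower at that stage. The median effect was 0.02 over the 35 genes and -0.005 over all probe sets.

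**Figure D1:**
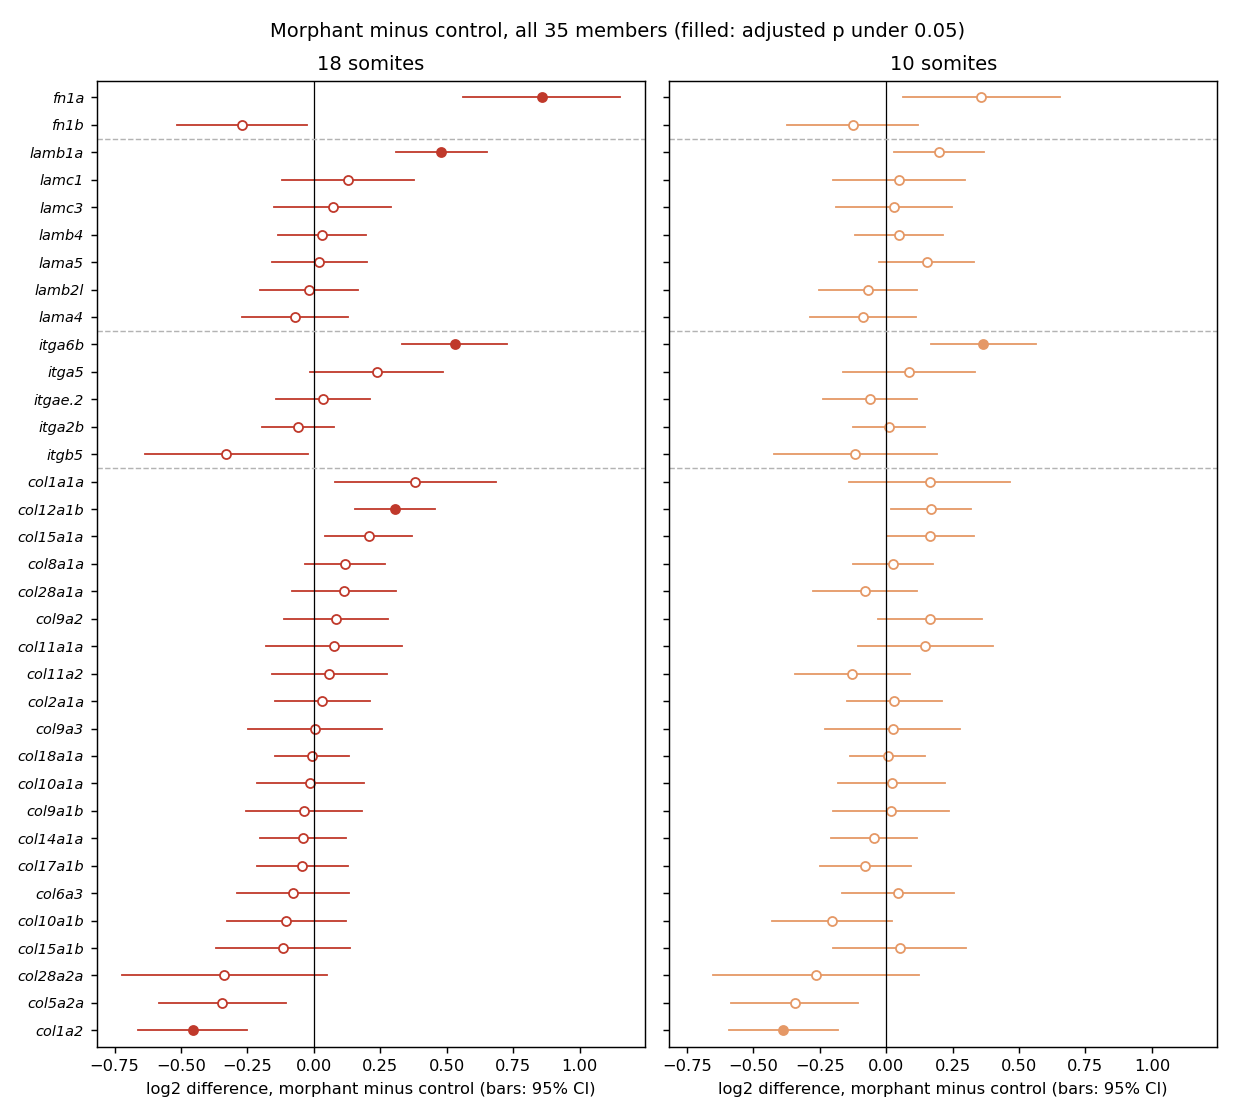
Morphant minus control on the log2 scale for all 35 genes at 18 somites (left) and 10 somites (right), with 95% confidence intervals of the fit; filled points passed the test. The effect of fn1a at 18 somites, 0.86, is the largest in size, and most intervals span 0.

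The largest effect was that of fn1a, which encodes a fibronectin of the kind that cells assemble into fibrils. Its log2 signal was 9.72, 9.82 and 9.15 on morphant arrays 1 to 3 at 18 somites, against 8.68, 8.81 and 8.62 on control arrays 1 to 3. All 3 morphant arrays lay above all control arrays, with morphant array 3 nearest to them. Such a lack of overlap, given here and below, describes the arrays and is no support beyond the test. The effect was 0.86 ± 0.14 (SE, 95% CI 0.56 to 1.15), a 1.81-fold higher signal with an adjusted p of 0.00127. At 10 somites fn1a had 10.95, 11.12 and 10.97 in morphants and 10.58, 10.82 and 10.56 in controls. The groups again did not overlap, but the effect of 0.36 ± 0.14 did not pass the test (adjusted p = 0.133). Arrays with the same replicate number deviated together, and with the replicate number as a block within the stage this effect passed (adjusted p = 0.0219). It also passed without morphant array 3 of 18 somites, which enters through the shared spread (adjusted p = 0.0209).

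A second probe set of fn1a had the same sign without a call, at 0.53 ± 0.19 for 18 somites (adjusted p = 0.0796) and 0.27 ± 0.19 for 10 somites (adjusted p = 0.429). The third probe set, with signal near the tag controls, gave 0.04 and 0.16. The mean of the 3 probe sets differed by 0.47 at 18 somites. The second fibronectin gene, fn1b, was not higher in morphants. It had 8.63, 8.65 and 8.22 in morphants and 8.68, 8.87 and 8.76 in controls at 18 somites. All morphant arrays lay below all control arrays, but its effect of -0.27 ± 0.11 did not pass (adjusted p = 0.147). At 10 somites the effect was -0.13 ± 0.11 (adjusted p = 0.578). Within an array, fn1a minus fn1b was 1.13 log2 units larger in morphants at 18 somites and 0.49 larger at 10 somites. Both stages gave p = 0.1 in a two-sided exact permutation test of 3 against 3 arrays without regard to replicate number, the smallest p that such a test allows. This pair and the other pairs below were chosen after their values were seen.

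**Figure D2:**
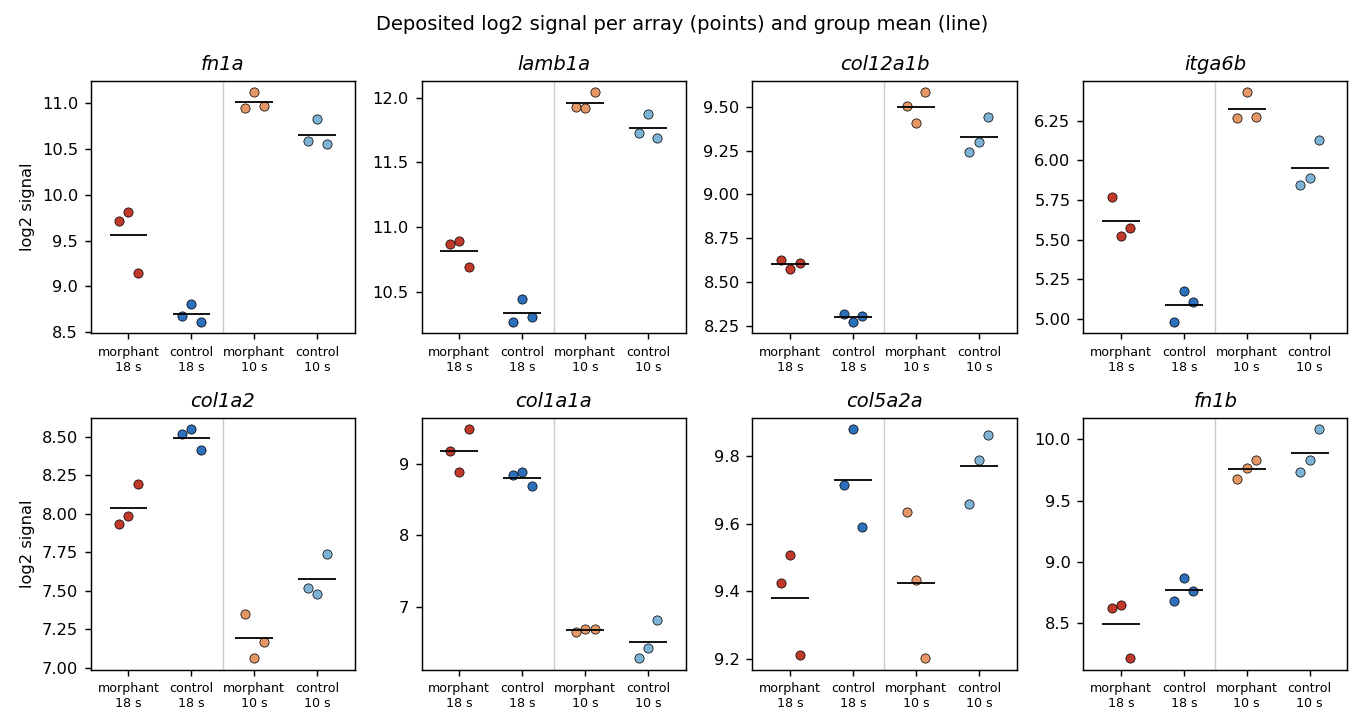
Deposited log2 signal on each array (points) and group mean (lines) for fn1a, lamb1a, col12a1b, itga6b, col1a2, col1a1a, col5a2a and fn1b in morphants and controls at 18 somites and then at 10 somites. The morphant points of fn1a, lamb1a, col12a1b and itga6b lie above the control points at 18 somites and those of col1a2 below them.

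Of the 7 laminin chains only lamb1a passed the test. It encodes a beta chain of the early embryonic laminins, and its loss in zebrafish disrupts the notochord. At 18 somites it had 10.87, 10.89 and 10.69 in morphants and 10.27, 10.44 and 10.30 in controls. The groups did not overlap, and the effect was 0.48 ± 0.08 (95% CI 0.31 to 0.65, 1.39-fold higher, adjusted p = 0.00156). At 10 somites the effect was 0.20 ± 0.08 and did not pass (adjusted p = 0.15). The gamma chain lamc1, with which beta chains assemble, differed by 0.13 ± 0.12 at 18 somites (adjusted p = 0.544) and 0.05 ± 0.12 at 10 somites. Within an array lamb1a minus lamc1 was 0.35 larger in morphants at 18 somites (exact permutation p = 0.1, two-sided) and 0.15 larger at 10 somites (p = 0.3).

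Neither of the measured alpha chains passed the test. The effect of lama5, an alpha chain of the epidermal basement membrane in fish fins, was 0.02 ± 0.08 at 18 somites and 0.15 ± 0.08 at 10 somites (adjusted p of 0.917 and 0.306). That of lama4, an alpha chain of vessel and muscle basement membranes in mammals, was -0.07 ± 0.09 and -0.09 ± 0.09 (adjusted p of 0.697 and 0.651). The lamb4 gene lies next to lamb1a in the gene order of the RefSeq table, and its effect at 18 somites was 0.03 ± 0.08, at a signal in the range of the tag controls.

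Among the 5 integrin subunits itga6b was higher at both stages. It encodes an alpha subunit of the laminin receptors. At 18 somites it had 5.77, 5.52 and 5.57 in morphants and 4.98, 5.18 and 5.11 in controls, so the control signal lay within the range of the tag controls and the morphant signal just above it. The difference was 0.53 ± 0.09 (95% CI 0.33 to 0.73, adjusted p = 0.00211), and no fold is given because the control signal may be background. At 10 somites it had 6.26, 6.43 and 6.27 in morphants and 5.85, 5.89 and 6.13 in controls, a difference of 0.37 ± 0.09 (95% CI 0.17 to 0.56, adjusted p = 0.025), and the controls again lay within the tag range and the morphants at or just above its upper end. The groups did not overlap at either stage. The call at 10 somites was lost without control array 1 (adjusted p = 0.102), control array 2 (0.0981), morphant array 2 (0.108) or morphant array 3 (0.057) of that stage.

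The fibronectin receptor subunit itga5, needed for somite boundaries in zebrafish, had 5.63, 6.15 and 6.07 in morphants and 5.65, 5.64 and 5.85 in controls at 18 somites. Morphant arrays 2 and 3 lay above all controls and morphant array 1 below them. The effect of 0.24 ± 0.12 did not pass (adjusted p = 0.218), and without morphant array 1 it was 0.40 and passed (adjusted p = 0.017). At 10 somites itga5 differed by 0.09 ± 0.12 (adjusted p = 0.731). The beta subunit itgb5, a partner of the alpha-v subunit in vertebrates, gave -0.33 ± 0.14 at 18 somites (adjusted p = 0.161) and -0.12 ± 0.14 at 10 somites (adjusted p = 0.702). With the replicate number as a block within the stage the fall of itgb5 at 18 somites passed (adjusted p = 0.0162).

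Of the chains of type I collagen col1a2 was lower in morphants. That collagen is the main fibril of skin, tendon and bone, and its molecule joins chains from col1a1 and col1a2 genes. At 18 somites col1a2 had 7.93, 7.98 and 8.20 in morphants and 8.52, 8.55 and 8.42 in controls. The groups did not overlap, and the effect was -0.46 ± 0.10 (95% CI -0.66 to -0.25, 1.37-fold lower, adjusted p = 0.00691). At 10 somites col1a2 had 7.35, 7.06 and 7.17 in morphants and 7.52, 7.48 and 7.74 in controls, an effect of -0.39 ± 0.10 (95% CI -0.59 to -0.18, adjusted p = 0.0232). A second probe set of col1a2 was lower too, by -0.50 ± 0.14 at each stage (adjusted p = 0.0301 at 18 somites and 0.04 at 10 somites). The first probe set lost its call at 10 somites without control array 3 (adjusted p = 0.078), morphant array 2 (0.104) or morphant array 3 (0.0808) of that stage.

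The partner chain col1a1a was not lower. It had 9.19, 8.89 and 9.49 in morphants and 8.84, 8.89 and 8.69 in controls at 18 somites, where morphant array 2 lay on the highest control. The effect was 0.38 ± 0.14 with an adjusted p of 0.0964, and it passed without morphant array 2 (0.53, adjusted p = 0.0283). With the replicate number as a block it passed when the block was shared by the stages (adjusted p = 0.046), and missed when the block was set within the stage (adjusted p = 0.0556). At 10 somites it had 6.64, 6.68 and 6.68 in morphants and 6.27, 6.42 and 6.81 in controls, an effect of 0.16 ± 0.14 (adjusted p = 0.559). The second probe set of col1a1a gave 0.34 ± 0.14 at 18 somites (adjusted p = 0.144) and 0.04 ± 0.14 at 10 somites. Both probe sets of col1a1a are of a type that can share sequence with other transcripts, so signal from a related gene cannot be told apart.

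Within an array, col1a2 minus col1a1a averaged -1.15 ± 0.21 in morphants and -0.31 ± 0.04 in controls at 18 somites (SD, n = 3 each), 0.84 lower in morphants. At 10 somites it averaged 0.53 ± 0.17 in morphants and 1.08 ± 0.16 in controls, 0.55 lower. Each gave p = 0.1 in the two-sided exact permutation test, the smallest it allows. With 3 arrays against 3 this test could not pass a threshold of 0.05, and such a ratio does not tell which chain moved.

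Another fibrillar chain, col5a2a of type V collagen, which sits in type I fibrils, had 9.43, 9.51 and 9.21 in morphants and 9.71, 9.88 and 9.59 in controls at 18 somites. The groups did not overlap, and the effect of -0.35 ± 0.11 just missed the test (adjusted p = 0.0593). At 10 somites it had 9.63, 9.43 and 9.20 in morphants and 9.66, 9.79 and 9.86 in controls, again -0.35 ± 0.11 (adjusted p = 0.0756). With the replicate number as a block within the stage both passed (adjusted p of 0.0262 at 18 somites and 0.0334 at 10 somites). Without morphant array 1 or 3 of 10 somites the effect at 18 somites passed (adjusted p of 0.0421 and 0.0405), and without morphant array 1 so did that at 10 somites (-0.45, adjusted p = 0.0339). Centring each array, quantile normalization and a filter on dim probe sets also brought the effect at 18 somites past the threshold (adjusted p of 0.0491, 0.0485 and 0.0486). A second probe set of col5a2a, with a dim signal, gave -0.04 at 18 somites and -0.08 at 10 somites.

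The collagen col12a1b, a fibril surface collagen of connective tissue sheets, had 8.63, 8.58 and 8.61 in morphants and 8.32, 8.27 and 8.31 in controls at 18 somites. The arrays of each group lay close together and the groups apart, and the effect was 0.30 ± 0.07 (95% CI 0.15 to 0.45, 1.23-fold higher, adjusted p = 0.0114). At 10 somites it was 0.17 ± 0.07 and did not pass (adjusted p = 0.164). The basement membrane collagen col15a1a gave 0.21 ± 0.08 at 18 somites (adjusted p = 0.0981) and 0.17 ± 0.08 at 10 somites (adjusted p = 0.218). Its relatives col15a1b and col18a1a, which line muscle and motor nerve paths in the zebrafish embryo, gave -0.12 ± 0.12 and -0.006 ± 0.07 at 18 somites, and 0.05 ± 0.12 and 0.005 ± 0.07 at 10 somites.

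No collagen of the notochord sheath and cartilage passed the test. The effect of col2a1a, the type II chain, was 0.03 ± 0.08 at 18 somites (95% CI -0.15 to 0.21) and 0.03 ± 0.08 at 10 somites. The type IX chains col9a1b, col9a2 and col9a3 gave -0.04, 0.08 and 0.004 at 18 somites and 0.02, 0.17 and 0.02 at 10 somites, with the lowest adjusted p 0.31. The type XI chain col11a1a gave 0.08 and 0.15, and col8a1a, whose loss distorts the zebrafish notochord, gave 0.12 and 0.03. The type XXVIII chain col28a2a had 7.41, 7.32 and 6.93 in morphants and 7.48, 7.97 and 7.21 in controls at 18 somites, overlapping groups with an effect of -0.34 ± 0.18 (adjusted p = 0.262).

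The remaining 12 genes had effects between -0.10 and 0.11 at 18 somites and between -0.20 and 0.05 at 10 somites, and none passed (lowest adjusted p 0.486 and 0.274). Of these 12, 9 are the genes in or below the range of the tag controls, and the others are col11a2, col14a1a and lamb2l.

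Without the 4 arrays numbered 1, fn1a alone of the 35 genes passed at 18 somites (0.77, adjusted p = 0.0483), and none did at 10 somites. The effects at 18 somites were then 0.42 for lamb1a (adjusted p = 0.0585), 0.40 for itga6b (0.0568), 0.30 for col12a1b (0.105) and -0.39 for col1a2 (0.0865), and those at 10 somites were 0.34 for itga6b (0.135) and -0.49 for col1a2 (0.062). All probe sets lost calls in that smaller fit, with 677 called at 18 somites. With the block shared by the stages, 8 of the 35 genes passed at 18 somites, 5 higher and 3 lower. With the block within the stage 7 passed there, 4 higher and 3 lower. With either block 4 passed at 10 somites, 2 higher and 2 lower. Calls over all probe sets rose with the block too. At 18 somites 1935 were called without a block, 2809 with the block within the stage and 2866 with it shared. At 10 somites 1267 were called without a block, 2040 with the block within the stage and 2155 with it shared.

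The effects at 18 and 10 somites were set against each other in the same fit. None of the 35 genes passed this test of the difference, against 0.0323% of all probe sets. At an unadjusted p under 0.05 there were 2 of the 35 genes (5.71%), beside 8.11% of all probe sets. These were fn1a, with an effect 0.50 ± 0.20 larger at 18 somites (95% CI 0.08 to 0.92, unadjusted p = 0.0223, adjusted p = 0.514), and lamb1a, with 0.28 ± 0.11 (95% CI 0.04 to 0.52, unadjusted p = 0.0247, adjusted p = 0.534). A call at 18 somites and none at 10 somites is therefore not shown to be a difference between the stages for fn1a, lamb1a or col12a1b.

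The later stage was then set against the earlier one within each treatment, after each array was centred on its median. Most collagens rose between 10 and 18 somites and both fibronectins fell, in morphants and in controls. In morphants 17 of 35 genes were higher and 5 lower at 18 somites than at 10 somites, and in controls 17 were higher and 6 lower. In morphants 53.4% of all probe sets were called, 22.9% of named genes higher and 32% lower, beside 48.6% and 14.3% of the 35 genes. In controls 50.9% of all probe sets were called, 21.8% of named genes higher and 29.3% lower, beside 48.6% and 17.1% here. The median stage change of the 35 genes was 0.13 in morphants and 0.22 in controls, and that of all probe sets -0.02 in each.

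These directions depend on the centring. The array medians differed between stages and hardly between treatments, and no source used here states which arrays were normalized together. A stage fold is therefore relative to the array median and is no absolute change. The deposited medians were lower at 18 somites by 0.75 in morphants and 0.77 in controls. On the deposited values 6 of the 35 genes were called higher and 25 lower in each treatment. Of all 15502 probe sets 14773 were called there in morphants and 14805 in controls, so these counts carry the shift of the whole array. After centring, the tag controls themselves moved by a median of 0.14 in each treatment, between -0.52 and 0.53 in morphants and between -0.47 and 0.61 in controls. Of the 17 genes called higher, 4 in morphants and 5 in controls had signals in or below the tag range at both stages. Stage changes use the same arrays as the morphant effects, so both kinds of value are not independent.

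**Figure D3:**
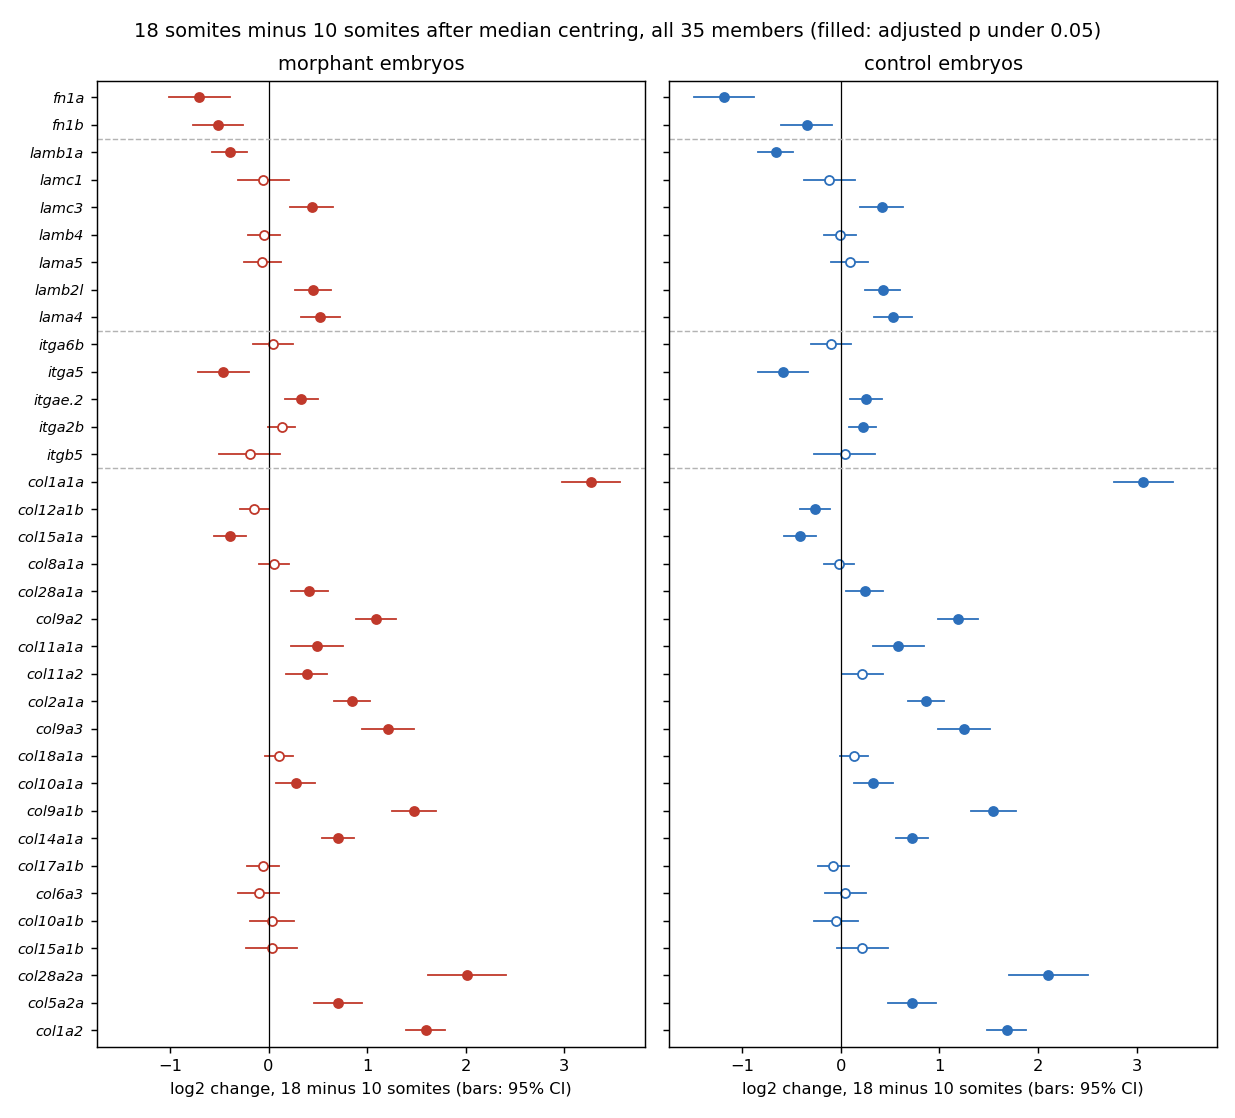
Log2 change between 10 and 18 somites (18 minus 10) after median centring, in morphants (left) and controls (right), with 95% confidence intervals; filled points passed the test. The chain col1a1a lies farthest right, at 3.27 and 3.07, and fn1a falls by -0.70 in morphants and -1.18 in controls.

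Of the 21 collagens 13 rose and 1 fell in morphants (61.9% and 4.76%, beside 22.9% and 32% of named genes). In controls 12 rose and 2 fell (57.1% and 9.52%, beside 21.8% and 29.3%). The rises in each treatment include col10a1a and col28a1a, whose signals lay in the tag range at both stages. The type I chain col1a1a rose most, by 3.27 ± 0.14 in morphants (9.65-fold, adjusted p = 1.83e-09) and 3.07 ± 0.14 in controls (8.4-fold, adjusted p = 2.43e-09). Its centred signal in morphants was 2.63, 2.37 and 2.92 at 18 somites, against -0.68, -0.61 and -0.61 at 10 somites. In controls it was 2.31, 2.37 and 2.16 at 18 somites, against -1.02, -0.87 and -0.48 at 10 somites. No array of one stage came within 2 units of the other. The partner chain col1a2 rose by 1.59 ± 0.09 in morphants and 1.68 ± 0.09 in controls, about 3.02-fold and 3.21-fold, and its second probe set by 1.79 and 1.81. The second probe set of col1a1a rose by 2.33 and 2.05.

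The type II and type IX chains of notochord sheath and cartilage rose. In morphants the rise was 1.47 ± 0.11 for col9a1b, 1.21 ± 0.12 for col9a3, 1.09 ± 0.09 for col9a2 and 0.84 ± 0.09 for col2a1a. In controls it was 1.55, 1.25, 1.19 and 0.86, and the adjusted p was at most 3.79e-06 in both. The type XI chain col11a1a rose by 0.50 ± 0.12 in morphants and 0.58 ± 0.12 in controls. The signal of col28a2a rose by 2.01 ± 0.19 in morphants and 2.11 ± 0.19 in controls, starting from the range of the tag controls at 10 somites. On the deposited values col1a1a, col1a2, col28a2a, col9a1b, col9a2 and col9a3 were still called higher at 18 somites in both treatments, while col2a1a, at 0.10 in morphants and 0.09 in controls, was not called.

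The fibrillar chain col5a2a rose by 0.71 ± 0.11 in morphants and 0.73 ± 0.11 in controls, and the mean of its probe sets by 0.42 and 0.41; the second, dim probe set gave 0.12 and 0.09 without a call. The surface collagen col14a1a, found in epidermal basement membrane in zebrafish and given here after its values were seen, rose by 0.71 ± 0.08 and 0.72 ± 0.08. The laminin chain lama4 rose by 0.53 ± 0.09 in each. Its second probe set, with signal in the tag range at both stages, gave 0.15 in morphants and -0.04 in controls, neither called. The mean of both lama4 probe sets rose by 0.35 and 0.24. On the deposited values the signs of col11a1a, col5a2a, col14a1a and lama4 turned negative. No call was made for col8a1a, at 0.06 in morphants and -0.02 in controls, col18a1a, at 0.11 and 0.14, or lamc1, at -0.06 and -0.12. The change of col18a1a depended on the setting. It passed as a rise with quantile normalization (0.28 in morphants, adjusted p = 0.00429, and 0.29 in controls, 0.00324) and with the filter on dim probe sets (0.19, 0.0158, and 0.22, 0.00874). In controls it also passed with array weights (0.16, 0.0396) and without control array 3 of 10 somites (0.19, 0.0349).

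The falls were led by fn1a, with -0.70 ± 0.14 in morphants (1.63-fold lower, adjusted p = 0.00102) and -1.18 ± 0.14 in controls (2.27-fold lower, adjusted p = 1.9e-05). Its centred signal in morphants was 3.16, 3.29 and 2.58 at 18 somites, against 3.64, 3.83 and 3.68 at 10 somites. In controls it was 2.15, 2.30 and 2.09 at 18 somites, against 3.29, 3.53 and 3.27 at 10 somites. Its second probe set fell as well, by 0.57 in morphants and 0.81 in controls, while the third, near the tag controls, gave -0.19 and -0.04 without a call. The mean of the 3 probe sets fell by 0.48 in morphants and 0.68 in controls. The laminin chain lamb1a fell by 0.40 ± 0.08 in morphants and 0.66 ± 0.08 in controls, and the integrin subunit itga5 by 0.46 ± 0.12 and 0.59 ± 0.12. In morphants the fall of lamb1a was 0.20 with quantile normalization (adjusted p = 0.0448), and that of itga5 was 0.30 without morphant array 1 of 18 somites (adjusted p = 0.0208). Apart from the centring, the difference between these falls is the difference of the morphant effects tested above, which did not pass for any of the 3 genes.

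The second fibronectin fn1b fell by 0.51 ± 0.12 in morphants (adjusted p = 0.00273) and 0.35 ± 0.12 in controls (adjusted p = 0.0263). The fall of fn1b in controls was lost without control array 3 of 10 somites (adjusted p = 0.119) or control array 1 (0.0895) or 3 (0.0631) of 18 somites. The basement membrane collagen col15a1a fell by 0.39 ± 0.08 in morphants and 0.41 ± 0.08 in controls. The surface collagen col12a1b fell by 0.26 ± 0.07 in controls (adjusted p = 0.00651), and in morphants its change of -0.15 ± 0.07 did not pass (adjusted p = 0.0933). The laminin receptor subunit itga6b gave 0.05 in morphants and -0.10 in controls, and itgb5 -0.19 and 0.04, none of them called.

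Other genes of matrix and adhesion were read from a list of 142, of which 59 were measured. The list was chosen with earlier results of these data known, so its shares describe these genes and are no independent support. At 18 somites 11 of these were higher and 4 lower in morphants (median effect 0.06), and at 10 somites 4 were higher and 1 lower (median 0.05). These are 18.6% higher and 6.78% lower at 18 somites, beside 8.28% and 6.48% of named genes, and 6.78% and 1.69% at 10 somites, beside 4.98% and 4.53%. Among 12 measured genes for making and exporting collagen, 5 were higher at 18 somites (41.7%, beside 8.28% of named genes) and none lower. Their mean signal in controls at 18 somites was 8.13 to 8.33, above the array medians of 6.52 to 6.53. The share of named genes was not matched for signal. At 10 somites none of the 12 passed in the limma fit. At an unadjusted p under 0.05 there were 4 (33.3%), beside 24.9% of named genes. With the block within the stage 2 of the 12 passed, where 2040 of all probe sets passed, against 1267 without the block. With the block shared by the stages 1 of the 12 passed, where 2155 of all probe sets passed.

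The collagen prolyl hydroxylase subunit p4ha1b had 9.46, 9.71 and 9.58 in morphants and 8.51, 9.06 and 8.58 in controls at 18 somites. The groups did not overlap, and the effect was 0.87 ± 0.16 (adjusted p = 0.00346). Its relative p4ha2 had 8.56, 8.87 and 9.15 in morphants and 7.92, 8.16 and 8.48 in controls, an effect of 0.68 ± 0.15 (adjusted p = 0.01). The lysyl hydroxylase plod1a was higher by 0.46 ± 0.12 (adjusted p = 0.0225), and the export genes creb3l2, a transcription factor, and sec23a, a vesicle coat subunit, by 0.28 ± 0.08 (adjusted p = 0.0309) and 0.22 ± 0.06 (adjusted p = 0.0319). Leaving out 1 array at a time ended 3 of these calls in some cases: that of plod1a without control array 1 or morphant array 2 or 3 (adjusted p up to 0.0999), that of creb3l2 without control array 1 or 2 or morphant array 1 or 3 (up to 0.137), and that of sec23a without control array 1 or 3 or morphant array 1 or 2 (up to 0.103), all of 18 somites. Fitted on the arrays of 18 somites alone, plod1a (adjusted p = 0.0519), creb3l2 (0.0822) and sec23a (0.0975) missed the threshold too. With each array centred on its median sec23a also missed it (0.0625). Without the 4 arrays numbered 1, 1 of the 12 genes passed.

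**Figure D4:**
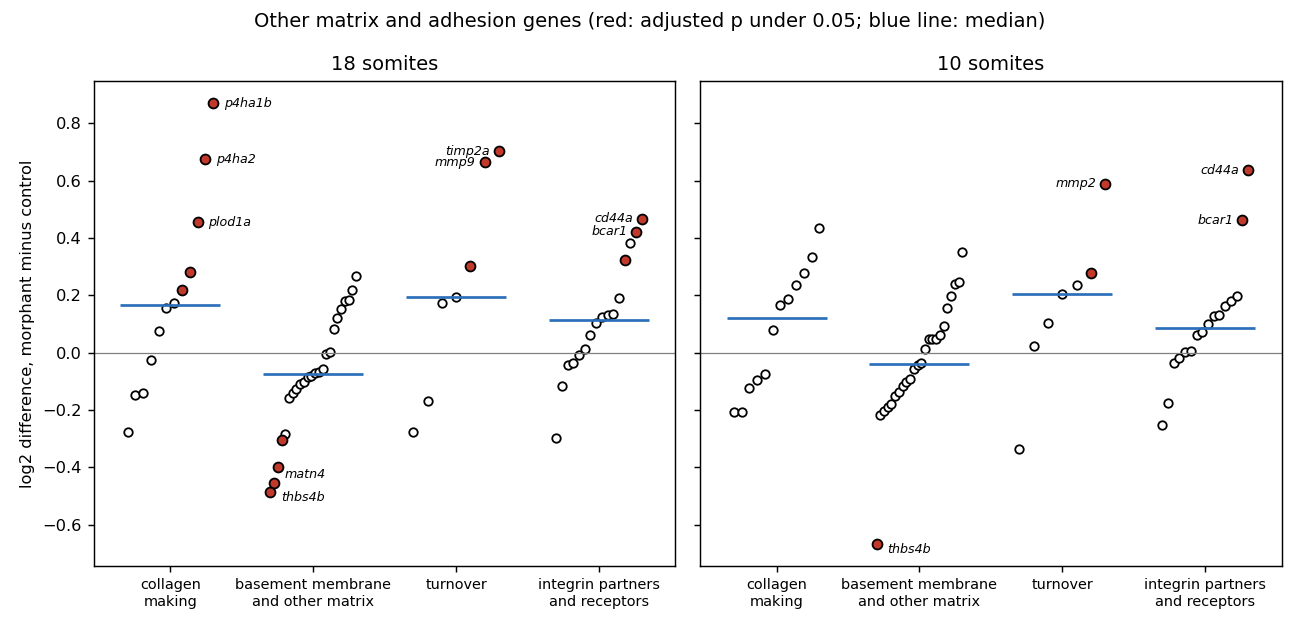
Morphant minus control on the log2 scale at 18 somites (left) and 10 somites (right) for the measured genes of 4 lists of other matrix and adhesion genes. Red points passed the test, with those of larger size named, open points did not, and blue lines are list medians. The 5 called genes for making collagen are all higher at 18 somites.

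Among 24 measured genes of basement membrane and other matrix, 4 were lower at 18 somites (16.7%, beside 6.48% of named genes) and none higher. They were the tendon thrombospondin thbs4b, at -0.49 ± 0.11, the matrilin matn4, at -0.46 ± 0.09, tgfbi, at -0.40 ± 0.08, and the neural tenascin tnr, at -0.31 ± 0.09. At 10 somites thbs4b was lower by -0.67 ± 0.11 and no other gene of that list passed. With the replicate number as a block within the stage 3 of the 24 passed at 10 somites and 5 at 18 somites. The 3 at 10 somites include matn4, there higher in morphants (0.25, limma adjusted p = 0.0267) and not lower as at 18 somites. That block raised the calls over all probe sets from 1267 to 2040 at 10 somites and from 1935 to 2809 at 18 somites. The block shared by the stages gave the same counts of the 24. The signals of matn4 and tnr lay in or near the tag range, and the call of tnr was lost without any one of 6 arrays (control array 1 or 2 or morphant array 2 or 3 of 18 somites, or control array 2 or morphant array 3 of 10 somites, adjusted p up to 0.163). It was also lost in a fit to the arrays of 18 somites alone (adjusted p = 0.0613).

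Of 7 measured genes of matrix turnover 3 were higher at 18 somites (42.9%, beside 8.28% of named genes) and none lower. The metalloproteinase inhibitor timp2a had 6.47, 6.53 and 6.67 in morphants and 5.82, 5.95 and 5.79 in controls, an effect of 0.70 ± 0.08. The gelatinase mmp9 was higher by 0.67 ± 0.07 and the membrane-bound mmp14b by 0.30 ± 0.09. At 10 somites the gelatinase mmp2 was higher by 0.59 ± 0.08, with 9.66, 9.73 and 9.51 in morphants and 9.04, 9.08 and 9.01 in controls, and mmp9 by 0.28 ± 0.07. With the replicate number as a block, within the stage or shared, 3 of the 7 passed at 10 somites. The calls over all probe sets then rose from 1267 to 2040 and 2155. The call of mmp14b was lost without control array 1 or 3 or morphant array 1 or 2 of 18 somites (adjusted p up to 0.119). It was also lost with each array centred (adjusted p = 0.0566) and in a fit to the arrays of 18 somites alone (0.0679). That of mmp9 at 10 somites was lost without control array 1 or 2 or any morphant array of that stage (up to 0.129), and with quantile normalization (0.0599).

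Among 16 measured partners of integrins and other receptors, 3 were higher at 18 somites (18.8%, beside 8.28% of named genes): cd44a, a hyaluronan receptor, by 0.47 ± 0.14, and the focal adhesion scaffolds bcar1, by 0.42 ± 0.07, and pxna, by 0.32 ± 0.07. With the replicate number as a block within the stage 5 of the 16 passed at 18 somites. That block raised the calls over all probe sets from 1935 to 2809. At 10 somites cd44a was higher by 0.64 ± 0.14 and bcar1 by 0.46 ± 0.07, or 0.24 for the mean of the probe sets of bcar1. The signal of cd44a lay in the tag range. Its call at 18 somites was lost without any control array or without morphant array 2 or 3 of that stage (adjusted p up to 0.141), and its call at 10 somites without morphant array 3 of that stage (0.0552). With array weights the call of cd44a at 18 somites was lost as well (adjusted p = 0.083).

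Markers of the tissues that make or carry this matrix were read on the same arrays. Beside the counts below, 8.28% of named genes were called higher and 6.48% lower at 18 somites, and 4.98% and 4.53% at 10 somites. In RNA of whole embryos fewer cells of a type and less RNA per cell cannot be told apart. Of 9 measured notochord and axis genes 1 was higher (ntd5, 0.49) and 1 lower (matn4) in morphants at 18 somites, and at 10 somites ntd5 was higher (0.30) and foxa2 lower (-0.35). Their mean log2 signal ran from 7.44 to 7.61 in morphants and 7.41 to 7.56 in controls at 18 somites, and from 8.20 to 8.36 and 8.14 to 8.31 at 10 somites. Of 9 somite and muscle genes myod1 (0.33) and tbx16 (0.33) were higher and myog (-0.70) lower at 18 somites, and at 10 somites myog was lower (-1.03). Their mean ran from 8.37 to 8.50 in morphants and 8.38 to 8.44 in controls at 18 somites, and from 8.84 to 8.92 and 8.91 to 9.03 at 10 somites.

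Of 7 epidermal genes none passed at 18 somites, and tp63 was lower at 10 somites (-0.31). Their mean ran from 11.59 to 11.70 in morphants and 11.65 to 11.67 in controls at 18 somites, and from 12.38 to 12.45 and 12.47 to 12.49 at 10 somites. None of 4 vessel genes and none of 2 hatching gland genes passed at either stage. Of 6 neural genes 3 (sox3, gfap and neurog1, 50%) were lower in morphants at both stages and none higher. Of 6 neural crest genes crestin was lower at 18 somites (-0.58) and sox9b at 10 somites (-0.44). Of 8 blood genes lcp1, a leukocyte gene, was lower (-1.12) and spi1b higher (0.49) at 18 somites, and lcp1 (-2.67) and gata1a (-0.52) were lower at 10 somites. Of 5 heart genes cmlc1 (-1.85), myh7 (-1.68) and myl7 (-0.93) were lower and hand2 higher (0.77) at 18 somites, and hand2 was higher at 10 somites (0.42). At 10 somites cmlc1, myh7 and myl7 had means in the tag range in morphants (4.94, 4.65 and 4.91) and controls (5.15, 5.11 and 5.07). A change there can be hidden. At 18 somites cmlc1 (5.28) and myh7 (4.68) lay in the tag range in morphants. Background on this scale is read from the tag controls and not from 0, and a marker signal in their range may be background. Such signals included lcp1 in morphants at 18 somites (4.62) and matn4 in morphants at 10 somites (4.23). What part shifts in cell types have in the effects on fn1a, lamb1a, itga6b, col12a1b, col1a2 and the genes for making collagen was not tested.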

How the data were processed

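Signals were deposited as log2 values per probe set. RMA and the affy package are named for them per the submitters' processing notes, with no version; the set of arrays processed in 1 run is not stated there. Per the labels' protocols, biotinylated cRNA was made from 6 µg of total RNA. The table had 15617 rows and no unused column of samples; 115 control probe sets were left out. Of the 15502 tested, 10795 had 1 gene symbol in the platform annotation, 135 several and 4572 none. All 35 genes matched the RefSeq table of assembly GRCz12tu by gene ID, used for names and gene order only.

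A mean per group was fitted over 12 arrays with limma 3.58.1 (lmFit and eBayes, R 4.3.3), with 8 residual and 6.06 prior degrees of freedom, and two-sided p-values were adjusted by the Benjamini-Hochberg method over all probe sets tested. Values after ± are standard errors of the fit unless marked SD. Stage changes used arrays centred on their medians. The fit was also run on simulated data with independent noise on each array. Same-numbered arrays do not deviate together there, so that run does not test the fit for this feature of the data. Alternatives were other scalings, a filter on dim probe sets, array weights, replicate blocks, other probe sets, a size minimum and leaving out arrays.

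Named are genes called in a morphant effect, the 8 largest rises and 8 largest falls (6 were called) between stages in controls, and a panel of 35 symbols, of which 17 were measured. The genes and lists were chosen with earlier results of these data known. The labels do not say that replicates came from separate clutches, and p-values then reflect only how these arrays vary, which may be technical. Same-numbered arrays deviated from their group means together, with correlations for numbers 1, 2 and 3 of 0.41, 0.30 and 0.33 between morphants and controls at 18 somites, 0.55, 0.21 and 0.25 at 10 somites, 0.46, 0.32 and 0.29 between stages in morphants, and 0.49, 0.26 and 0.18 in controls. So the numbers appear to pair the arrays, by the data and not by the labels. The fit leaves the number out. Values with it as a block are given where they change a count of the 35 genes or of the lists of other matrix and adhesion genes. They are also given where they change the call of a morphant effect among the 35 genes. The marker counts were not read with a block.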

Additional observations from a re-analysis of the deposited data

How the results depend on the processing

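The number of arrays limits the precision, and genes in or below the tag range can hide a change. At 18 somites 5 of the 35 genes were called, 7 with the replicate block within the stage and 8 with it shared by the stages. There were 1 without the 4 arrays numbered 1, 2 with a minimum effect of 0.5, and 5 to 6 when 1 array was left out. Over all probe sets 1935 were called at that stage, 2809 with the block within the stage and 2866 with it shared. Without the arrays numbered 1 there were 677, and with the minimum 420. Leaving out 1 array gave 1213 to 1987 over all probe sets. At 10 somites 2 were called, 1 with the 60% of probe sets of highest mean (itga6b was not among those tested), 4 with array weights, 4 with the replicate block within the stage, 4 with it shared, 0 without the arrays numbered 1, 0 with the minimum, and 0 to 3 when 1 array was left out. Over all probe sets 1267 were called at that stage, 2447 with array weights, 2040 with the block within the stage and 2155 with it shared. Without the arrays numbered 1 there were 333, and with the minimum 294. Leaving out 1 array gave 643 to 1447 over all probe sets. The replicate blocks changed no other call of a morphant effect among the 35 genes than those given with the report. With the replicate block within the stage plod1a (0.34), matn4 (0.25) and mmp14b (0.24) also passed as higher in morphants at 10 somites. The minimum effect and the second probe sets were not applied to the 4 lists of other genes. Over the other settings the calls at 18 somites ran from 1 to 5 for making collagen and 2 to 5 for other matrix. For turnover they ran from 2 to 3 and for integrin partners from 2 to 5. At 10 somites the ranges were 0 to 2, 1 to 3, 1 to 4 and 1 to 4 in the same order. At 18 somites every called gene of other matrix and of integrin partners had an effect smaller in size than that minimum. The difference of effects had 0 calls under every setting run. With the minimum of 0.5, stage changes were called for 12 genes in morphants, against 22, and 14 in controls, against 23. Over all probe sets 2383 were then called in morphants, against 8281, and 2017 in controls, against 7892. Leaving out 1 array gave 21 to 23 genes in morphants and 21 to 24 in controls. Over all probe sets it gave 7171 to 8324 and 6737 to 8194. With the replicate block shared by the stages 24 genes were called in controls, where calls over all probe sets rose from 7892 to 8790. On quantile-normalized arrays 15 genes were higher and 6 lower in morphants, against 17 and 5, and 14 and 5 in controls, against 17 and 6. Over all probe sets 7035 were called with that normalization in morphants and 6577 in controls. The falls in controls of fn1b and col12a1b then missed the threshold (adjusted p of 0.115 and 0.0607), as did fn1b with the filter (0.0756); the cause was not tested. On the deposited values, where the stage shift of -0.75 in morphants and -0.77 in controls is kept by construction, 6 were higher and 25 lower in each. Over all probe sets 14773 were called there in morphants and 14805 in controls. Among the genes picked by the naming rule, with col14a1a, signs turned on the deposited values in morphants for col11a1a (-0.25), col14a1a (-0.042), col15a1b (-0.72), col18a1a (-0.64), col5a2a (-0.041), col8a1a (-0.69), itga6b (-0.70) and lama4 (-0.22). In controls they turned for col11a1a (-0.18), col14a1a (-0.048), col15a1b (-0.55), col18a1a (-0.63), col5a2a (-0.042), itgb5 (-0.73), lama4 (-0.24) and lama5 (-0.68), and for lama4 also with its second probe set (-0.041). A further 8 of the 35 genes turned in each treatment on the deposited values, 2 in controls with quantile normalization and 1 in each treatment with the second probe set. The 8 include col10a1a (-0.47 in morphants and -0.44 in controls) and col28a1a (-0.33 and -0.53), given above among the rises. No gene symbol of the set named a binding protein, so leaving such symbols out gave nothing to compare, and the difference of effects could not be fitted on the arrays of 1 stage.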
